A study of Mus musculus with 10 samples.

Results

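The regions described here are the open chromatin regions in and around 9 genes of the Hedgehog signalling pathway, namely Gli1, Gli2, Gli3, Ptch1, Smo, Hhip, Sufu, Boc and Cdon, in cultured neural stem cells (NSCs) of the adult mouse brain. A region belonged to a gene when its summit lay within the gene body or within 50 kb of it. There were 191 such regions among 137454 in the whole series, and they held 1208 of the 759157 ATAC-seq peaks. Of these 191 regions, 143 were detected in 2 or more of the 10 libraries, 114 were detected in 5 or more and were tested, and 73 were detected in all 10.

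Hedgehog ligands are secreted proteins that bind the receptor PTCH1, which otherwise holds the membrane protein SMO inactive. Active SMO, working at the primary cilium, turns the transcription factors GLI2 and GLI3 from repressors into activators and switches on target genes, among them Gli1, Ptch1 and Hhip. In the subependymal zone (SEZ), the germinal layer along the lateral ventricles, this pathway is known for maintaining adult NSCs and for setting the identity of the neurons they produce.

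ATAC-seq marks open DNA by letting a transposase insert sequencing adapters where nucleosomes leave room. NSCs were cultured from the SEZ of mice aged 10 weeks that were wild type (WT) or lacked Cdkn1b, the gene of the cell cycle inhibitor p27 (p27KO), and 50000 cells entered each library. Proliferating cultures (PRO) were neurospheres kept for 3 days in vitro with EGF at 20 ng/ml and FGF at 10 ng/ml. Differentiating cultures (DIFF) came from secondary neurospheres plated on Matrigel for 2 days with FGF and then held for 24 h without mitogen in medium with 2% fetal bovine serum. WT gave 3 libraries in each condition and p27KO gave 2, which the series names biological replicates without saying which cultures shared an animal, so p-values measure the spread between these libraries. PRO and DIFF cultures differed in substrate, serum, mitogens and plating together, so the effects of these cannot be told apart, and the deletion was present in every cell of the p27KO animals from the start of life.

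The lists held between 57534 and 91801 peaks, and the recovered background pileup, a measure of depth, lay between 2.52 and 3.72 fragments. Cdkn1b carried a peak in all 6 libraries labelled WT and in 0 of the 4 labelled p27KO, which matches the genotype labels, although the free text of the p27KO samples names WT cells. The Y-linked gene Ddx3y likewise carried a peak in all 6 of the former and 0 of the latter, so genotype cannot be told apart from the sex of the cultures. Of 7 neural stem and progenitor markers, 6 had a promoter peak in all 10 libraries (Sox2, Nes, Egfr, Slc1a3, Fabp7 and Olig2), whereas the promoter region of Pax6 had one in 1 library. Of 14 markers of other cell types, 6 had a promoter peak in all 10 libraries and 2, Cx3cr1 and Pecam1, in none. An open promoter is not expression. The promoter of P2ry12, a microglial receptor gene, was lower at DIFF in WT (-0.79 ± 0.18 normal score, SE, limma, adjusted p = 0.0106) and in p27KO (-0.82 ± 0.22, adjusted p = 0.0343). It was the only one of these 14 promoters to pass in either genotype. The other microglial promoters with peaks differed in direction. In WT and p27KO, Tmem119 changed by -0.66 and -0.96, Aif1 by 0.14 and -0.18, and Csf1r by 0.66 and 1.13. The part of these markers in the results below was not tested.

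The sequences below reach 100 bases to each side of a region's summit, taken as the median over libraries. For each gene the region is the one with the strongest called change between PRO and DIFF. Added to these is the one called region at a start site of a member. Smo and Hhip had no called region, and that of Gli1 overlaps an untranslated region and is given by position only. The sequences are shown because they are the DNA stretches whose opening the comparison turns on. Bases come from the GRCm38 reference and read from 5′ to 3′. Capitals mark matches to any of 6 short motifs searched on both strands.
Gli2 intron (chr1:118905453-118905653, plus strand): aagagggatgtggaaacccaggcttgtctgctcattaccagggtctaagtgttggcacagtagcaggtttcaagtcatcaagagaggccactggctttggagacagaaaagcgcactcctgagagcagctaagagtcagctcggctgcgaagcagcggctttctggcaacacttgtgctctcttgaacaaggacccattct
Gli3 intron (chr13:15664903-15665103, plus strand): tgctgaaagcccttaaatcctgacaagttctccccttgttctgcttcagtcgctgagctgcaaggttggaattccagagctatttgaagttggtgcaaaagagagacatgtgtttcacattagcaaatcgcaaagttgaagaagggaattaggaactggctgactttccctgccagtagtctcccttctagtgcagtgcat
Ptch1 upstream (chr13:63585132-63585332, plus strand): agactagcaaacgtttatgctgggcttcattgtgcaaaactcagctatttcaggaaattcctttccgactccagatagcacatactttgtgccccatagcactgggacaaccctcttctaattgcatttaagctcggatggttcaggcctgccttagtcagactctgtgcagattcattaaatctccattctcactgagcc
Ptch1 internal start (chr13:63566261-63566461, plus strand): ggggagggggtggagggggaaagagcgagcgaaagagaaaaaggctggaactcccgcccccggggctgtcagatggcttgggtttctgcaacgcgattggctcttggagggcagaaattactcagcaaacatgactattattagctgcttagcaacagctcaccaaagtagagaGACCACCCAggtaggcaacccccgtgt
Sufu upstream (chr19:46375629-46375829, plus strand): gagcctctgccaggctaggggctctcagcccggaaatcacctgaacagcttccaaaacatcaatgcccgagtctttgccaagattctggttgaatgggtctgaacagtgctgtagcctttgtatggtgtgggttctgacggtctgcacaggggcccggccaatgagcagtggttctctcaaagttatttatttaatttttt
Boc intron (chr16:44516585-44516785, plus strand): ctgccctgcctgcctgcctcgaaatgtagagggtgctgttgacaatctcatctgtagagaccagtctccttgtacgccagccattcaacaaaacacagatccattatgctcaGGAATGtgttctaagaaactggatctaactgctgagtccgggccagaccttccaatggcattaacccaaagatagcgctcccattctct
Cdon downstream (chr9:35508318-35508518, plus strand): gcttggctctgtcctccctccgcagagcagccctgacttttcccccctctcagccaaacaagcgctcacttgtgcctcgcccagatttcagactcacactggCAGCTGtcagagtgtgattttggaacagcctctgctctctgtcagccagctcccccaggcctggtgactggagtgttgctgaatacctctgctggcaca

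The 6 motifs were GACCACCCA (the site of GLI proteins), TGANTCA (AP-1), ACAATGG (SOX), the palindromic site of NFI proteins, CAGCTG (an E-box) and GGAATG (TEAD), and overlapping matches were counted. The GLI site was found in 1 of 143 member windows (0.699%) and in 129 of 98991 windows of the whole series (0.13%). That single match lay in the Ptch1 region at the internal start site. The E-box stood in 41 member windows (28.7%, against 21% of all windows), TEAD in 21 (14.7% against 14.7%), AP-1 in 8 (5.59% against 8.73%), SOX in 6 (4.2% against 3.78%) and NFI in 0 (0.0% against 0.115%). Among the members called higher at DIFF the AP-1 letters were in 0 of 17 windows, and among those called lower in 2 of 8; over all regions the shares were 4.47% of those higher and 24.4% of those lower in WT. The median GC content was 53.2% over the 143 member windows and 51.2% over all windows, and 67.7% at the 9 member promoters.

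The promoters of 8 of the 9 genes stayed open in both genotypes and both conditions, and none of the 9 passed the test in any comparison. Over all tested regions, 19.2% were called between PRO and DIFF in WT and 12.3% in p27KO. No such share was computed over promoters alone. A promoter region here is the one with the summit nearest to an annotated start of the gene. Other regions within 3 kb of a start are not among the 9. One such region, 626 bp from an internal start of Ptch1, was called in WT and is described below. Of the 9 promoter regions, all but that of Gli1 had a peak in all 10 libraries. Fold enrichment is the pileup of fragments at a summit over the local background, with 1 added to each, and its percentile is its rank within the library's own list. By this measure the co-receptor gene Cdon had the highest promoter, at a median percentile of 93.8 over the 10 libraries (range 82.7 to 96.2), and it was the highest of these 8 by fold enrichment in 9 libraries, though by pileup in 5. Next came Smo, the gene of the signal transducer, at 87.2 (79.6 to 93.5), Gli3 at 80.9 (72.6 to 85.9), the ligand-binding inhibitor gene Hhip at 73.6 (64.1 to 77.3), the GLI inhibitor gene Sufu at 70.5 (63.6 to 74.7), Gli2 at 69.1 (57.2 to 76.5) and the co-receptor gene Boc at 68.7 (56.0 to 72.9). The ranges of neighbours in this order overlapped. The order differed by pileup, with median pileups of 142.5 fragments at Gli2, 140.5 at Gli3 and 131.5 at Cdon; Gli3 was highest in 3 libraries and Gli2 in 2. The receptor gene Ptch1 had the lowest of the 8, at 54.3 (19.4 to 66.3), and was lowest by fold enrichment in 9 libraries and by pileup in 9. This rank holds for the region at its upstream start, with pileups of 22 to 52 fragments. The region 626 bp from an internal start of Ptch1 had pileups of 83 to 195, at percentiles of 24.8 to 63.0.

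**Figure D1:**
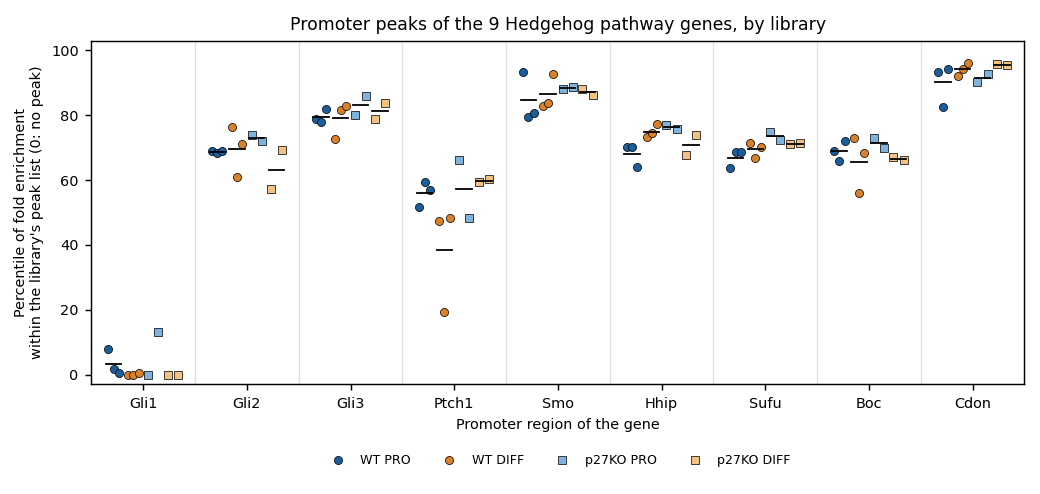
Percentile of fold enrichment within each library's peak list (vertical axis, 0 where the library had no peak) at the promoter region of each of the 9 genes. Circles are WT and squares p27KO libraries, blue for PRO and orange for DIFF, and a bar is the group mean where every library of the group had a peak. Cdon lay between 82.7 and 96.2 in every library and Ptch1 between 19.4 and 66.3. At none of these 9 regions did DIFF differ from PRO past the threshold.

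At the Ptch1 promoter (chr13:63572395-63573978) the percentiles were 51.6, 59.5 and 57 in WT PRO, 47.4, 19.4 and 48.3 in WT DIFF, 66.3 and 48.2 in p27KO PRO and 59.4 and 60.3 in p27KO DIFF. The 3 WT DIFF libraries lay below all WT PRO libraries, while the p27KO groups overlapped. The change from PRO to DIFF was -0.22 ± 0.20 in WT (limma, adjusted p = 0.49) and 0.30 ± 0.24 in p27KO (adjusted p = 0.478). These changes are on a normal score scale, in which a region's rank within a library is turned into a standard normal value, so 1 unit is 1 SD of the library's ranking; errors are SE.

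Gli1, itself a readout of the pathway, has several annotated starts, and their regions differed in strength. The region nearest to an annotated start lay at an internal start (chr10:127339757-127340084) and had a peak in 5 libraries, at percentiles of 13.1 or below. A pair of neighbouring regions was looked at after these values were seen. The region 485 bp from the upstream start (chr10:127342035-127342702) had a peak in 9 libraries at percentiles from 12.4 to 61.2, and an intronic region 885 bp from a start (chr10:127338778-127339615) had one in all 10 at 62.5 to 83.9. Neither passed the test in WT (0.52 ± 0.22, adjusted p = 0.135, and 0.04 ± 0.20, adjusted p = 0.923).

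Outside these 9 promoter regions, accessibility around the pathway genes did change between PRO and DIFF. In WT, 22 of the 114 tested member regions passed the threshold (limma on normal scores, Benjamini-Hochberg adjusted p under 0.05 over all 70627 tested regions), 15 of them higher and 7 lower at DIFF. That is 19.3% of the members against 19.2% of all regions, so the number called was at the level of the genome as a whole. The members split otherwise by direction, with 13.2% higher against 9.15% of all regions and 6.14% lower against 10.1%. In p27KO, 13 of 114 passed (11.4%, against 12.3% of all regions), with 11 higher (9.65% against 5.83%) and 2 lower (1.75% against 6.48%). No difference of these shares was tested. The median change over the tested members was 0.11 in WT and 0.11 in p27KO, against 0.03 and 0.04 over all tested regions.

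A region open in only the 5 DIFF libraries could enter the test only by differing. There were 4 such members, 2 in Gli2 and 1 each at Ptch1 and Sufu, all counted above. Without them 18 were called in WT and 9 in p27KO. These still include the Gli3 region at 201.8 kb, the Gli2 region at 148.1 kb and the Ptch1 region at 24.2 kb. Each had a peak in 1 PRO library besides the 5 DIFF libraries, so it too entered the test through DIFF. The Gli3 region 18.7 kb upstream, called in WT, entered through PRO, with a peak in every PRO and 1 DIFF library. In all, 9 of the 25 members called in either genotype had a peak in 5 or 6 libraries. Among the 73 members with a peak in all 10 libraries, 6 were called in WT, 3 in each direction (8.22%, against 12.9% of all such regions), and 5 in p27KO, 3 higher and 2 lower (6.85%, against 6.33%). The count in WT fell from 22 to 12 without WT DIFF replicate 1 (14.4% of all regions then called) and likewise to 12 without WT DIFF replicate 2 (15.2%). The p27KO count rose from 13 to 20, with 16 higher and 4 lower (all regions 14.1% called), when regions were ranked by summit pileup, an alternative chosen after seeing the data.

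Of the 25 regions called in either genotype, 17 were higher and 8 lower at DIFF. No share called in either genotype was computed over all regions, so these counts and those per gene below have no such baseline. Of these regions 14 lay in introns of the member gene, 22 were more than 3 kb from any start, 2 were at the start of another gene and 1 was within 3 kb of a start of a member. The called regions belonged to 7 of the 9 genes. The 11 tested regions of Smo and the single tested region of Hhip, its promoter, held none.

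**Figure D2:**
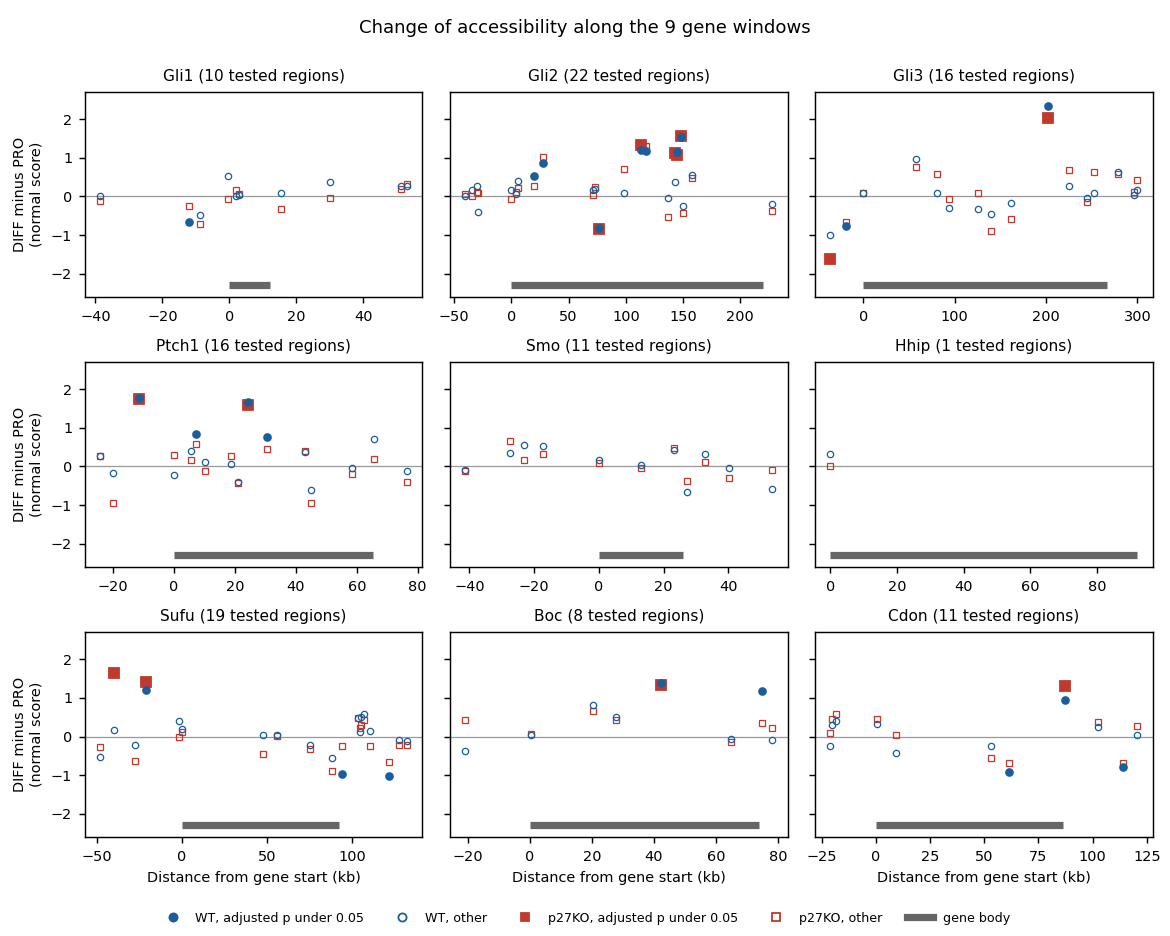
Change from PRO to DIFF (vertical axis, normal score) of every tested region against its distance from the gene start in the direction of transcription (horizontal axis, kb), 1 panel per gene. Circles are WT and squares p27KO, filled where the adjusted p was under 0.05, and the grey bar is the gene body. The filled symbols lie away from 0 kb in every panel, and Smo and Hhip have none.

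The largest change of any member was in an intron of Gli3, whose protein is the main repressor among the GLI factors. The region at chr13:15664731-15665143, 201.8 kb into the gene, had no peak in the 3 WT PRO libraries and fold enrichments of 6.58, 6.48 and 11.6 in the 3 WT DIFF libraries. In p27KO it had a fold enrichment of 4.79 in PRO replicate 1, no peak in PRO replicate 2, and 11 and 10.5 at DIFF. All DIFF libraries thus lay above all PRO libraries. The change was 2.33 ± 0.28 in WT and 2.03 ± 0.34 in p27KO. With a peak in 1 PRO library, the region entered the test through its DIFF libraries, so no p is given. Recovered pileups were 25 to 54 fragments at DIFF over a local background of 2.52 to 3.72.

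Upstream of Gli3, by contrast, accessibility was lower at DIFF. At chr13:15426653-15427357, 36.1 kb before the start, fold enrichments were 9.92, 4.99 and 9.77 in WT PRO and 3.79, absent and 4.66 in WT DIFF, and 6.47 and 9.06 in p27KO PRO with no peak in either p27KO DIFF library. By fold enrichment no DIFF library reached the lowest PRO library, but by percentile WT DIFF replicate 3 (44.4) lay above WT PRO replicate 2 (39.8), and their pileups were equal at 21 fragments. The change was -1.61 ± 0.40 in p27KO (adjusted p = 0.0226) and -1.0 ± 0.32 in WT (adjusted p = 0.0531). The p27KO call was lost without p27KO PRO replicate 2, p27KO DIFF replicate 1 or p27KO DIFF replicate 2 (highest adjusted p = 0.159). The WT change passed without WT PRO replicate 2 (-1.38, adjusted p = 0.00777), with equal numbers of top peaks (adjusted p = 0.0461) and with the replicate number as a block (adjusted p = 0.0437). At chr13:15444347-15444704, 18.7 kb before the start, the WT change was -0.77 ± 0.22 and the p27KO change -0.65 ± 0.27. All PRO libraries but only WT DIFF replicate 3 had a peak there. The region entered the test through PRO, so no p is given. Only the WT change was called. Ranking by pileup ended that call (-0.62), as did leaving out WT PRO replicate 1 or 3 or any 1 of the WT DIFF libraries.

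The Gli3 promoter itself (chr13:15462692-15464739) gave different answers by measure. Its fold enrichments were 9.96, 9.97 and 10.1 in WT PRO and 7.68, 9.09 and 10.4 in WT DIFF, and the change was 0.09 ± 0.18 (adjusted p = 0.771). Pileups were 137, 176 and 147 in WT PRO and 65, 84 and 144 in WT DIFF, and local background 12.9 to 16.8 and 7.60 to 13.0, so both fell in parallel in WT DIFF replicates 1 and 2. Ranked by pileup, the same region was lower at DIFF by -0.42 (adjusted p = 0.0301).

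Gli2, the gene of the main GLI activator, had the most tested regions, 22, and the most called in either genotype, 8. In WT 6 were called higher and 1 lower, and in p27KO 4 and 1. Over all tested regions 19.2% were called in WT and 12.3% in p27KO, and no difference from these shares was tested. Of the 8 called regions, 5 were higher at DIFF within a stretch of 35.4 kb inside the gene, from 113.0 to 148.1 kb after the start, where 6 regions were tested. This stretch was marked out after the values were seen. The remaining tested region in it, chr1:118916133-118917081, was not called and its changes were negative. They were -0.04 ± 0.18 in WT (limma, adjusted p = 0.894) and -0.54 ± 0.22 in p27KO (adjusted p = 0.146). At chr1:118905350-118905868 no WT PRO library had a peak and the WT DIFF fold enrichments were 3.62, 4.61 and 6.17, while in p27KO the values were 3.34 and absent at PRO and 5.71 and 6.02 at DIFF. Every DIFF library was above every PRO library. The change was 1.53 ± 0.20 in WT and 1.56 ± 0.24 in p27KO. No p is given, because with a peak in 1 PRO library the region entered the test through DIFF.

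A further 2 regions of this stretch were open in the 5 DIFF libraries and in no PRO library of either genotype. At chr1:118940481-118940704 the fold enrichments at DIFF were 2.96, 4.43 and 3.92 in WT and 3.67 and 4.56 in p27KO, with changes of 1.19 ± 0.22 and 1.33 ± 0.26. At chr1:118909167-118909383, outside the naming rule and chosen after its values were seen, the changes were 1.16 ± 0.17 and 1.08 ± 0.21. Both entered the test through DIFF alone, so no p is given. With pileups of 14 to 26 fragments, the first of these is a weak region throughout.

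The other 2 called regions of the stretch were open at PRO as well. At chr1:118935980-118936564 fold enrichments were 5.26, 3.63 and 3.59 in WT PRO, 7.39, 5.95 and 7.42 in WT DIFF, 5.61 and absent in p27KO PRO, and 7.18 and 7.04 in p27KO DIFF. DIFF exceeded PRO in every library, with changes of 1.17 ± 0.33 in WT (adjusted p = 0.0285) and 1.31 ± 0.40 in p27KO (adjusted p = 0.0569). The WT call was lost without WT PRO replicate 2 or 3 or any 1 WT DIFF library (highest adjusted p = 0.0924), and with all regions present in at least 2 libraries tested (0.91, adjusted p = 0.0694). The p27KO change passed without p27KO PRO replicate 1 (2.03, adjusted p = 0.00871) and in 4 other alternatives, ranking by −log10 p (adjusted p = 0.0435), by pileup (0.0388), the replicate block (0.024) and the crossed block (0.0453). At chr1:118910722-118911620, again outside the naming rule, the p27KO change was 1.13 ± 0.22 (adjusted p = 0.00651) and the WT change 0.38 ± 0.18 (adjusted p = 0.164). Its pileups were 23 to 31 in WT PRO and 43 to 86 in WT DIFF while its local background was 2.69 to 3.84 and 6.44 to 10.2, and ranking by pileup gave 1.04 in WT (adjusted p = 0.000532). The p27KO call was lost without p27KO PRO replicate 1 (adjusted p = 0.0518) or p27KO DIFF replicate 1 (adjusted p = 0.0512), and joining summits within 150 bp turned its direction (-0.70, adjusted p = 0.487).

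One Gli2 intron region went the other way. At chr1:118976394-118977123, 76.9 kb after the start and outside the naming rule, pileups were 167, 157 and 153 in WT PRO and 40, 33 and 65 in WT DIFF, and 216 and 237 in p27KO PRO against 48 and 59 in p27KO DIFF. Fold enrichment ran from 11.8 to 15.1 at PRO and from 5.72 to 9.47 at DIFF, with no overlap. The change was -0.81 ± 0.19 in WT (adjusted p = 0.0114) and -0.85 ± 0.23 in p27KO (adjusted p = 0.0351). The p27KO call was lost without p27KO PRO replicate 2 or either p27KO DIFF library (highest adjusted p = 0.238) and in the fit with the replicate number as a block (adjusted p = 0.0602). The window held matches to the AP-1 and E-box letters. The remaining 2 called Gli2 regions, 27.5 and 19.6 kb after the start, passed in WT near the threshold (adjusted p = 0.0373 and 0.0422); the former lost its call without any 1 of 5 WT libraries and the latter without any 1 of the 10 libraries, and ranked by pileup the latter changed by -0.06 (adjusted p = 0.737).

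**Figure D3:**
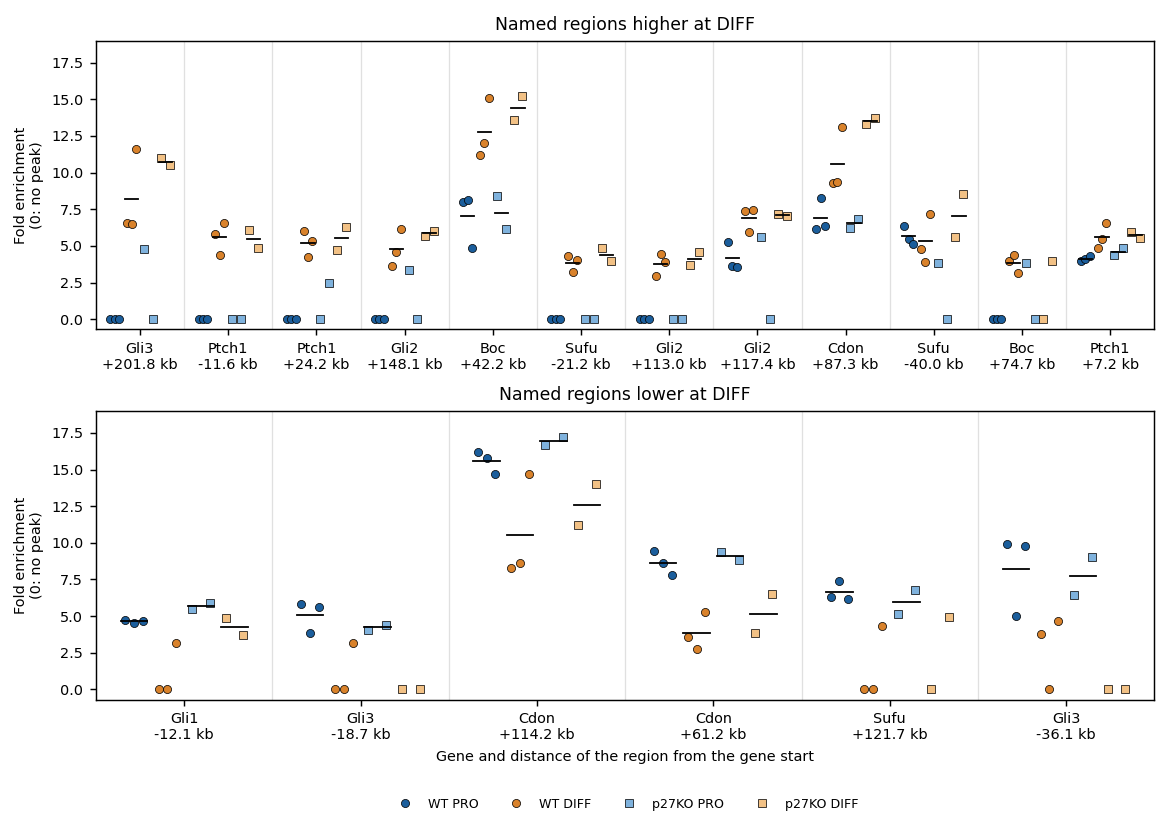
Fold enrichment (vertical axis, 0 where the library had no peak) in each library at the called regions named by rule, higher at DIFF in the upper panel and lower in the lower one, labelled by gene and distance from the gene start. Circles are WT and squares p27KO, blue for PRO and orange for DIFF, and a bar is the group mean where every library had a peak. The Boc region at +42.2 kb separates fully, with PRO between 4.88 and 8.38 and DIFF between 11.2 and 15.2.

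Gli1 had 1 called region, which lies at the start of a neighbouring gene rather than of Gli1. The region at chr10:127353929-127354155, 12.1 kb upstream of Gli1, overlaps an untranslated region of Inhbe, an activin subunit gene, 350 bp from its start. Its fold enrichments were 4.71, 4.53 and 4.68 in WT PRO and absent, absent and 3.17 in WT DIFF. All WT DIFF libraries lay below WT PRO, with a change of -0.65 ± 0.20 (adjusted p = 0.0462), and the p27KO change was -0.25 ± 0.25 (adjusted p = 0.59). The WT call was lost without any 1 of the 6 WT or of the 2 p27KO PRO libraries (highest adjusted p = 0.128), ranked by pileup (adjusted p = 0.0676) and in 6 further alternatives.

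Ptch1, the receptor and at the same time a target of the pathway, had 4 called regions of 16 tested, all higher at DIFF. At chr13:63585091-63585561, 11.6 kb upstream, no PRO library of either genotype had a peak. The DIFF fold enrichments were 5.82, 4.40 and 6.56 in WT and 6.11 and 4.83 in p27KO, so presence alone separated the conditions. The change was 1.78 ± 0.20 in WT and 1.75 ± 0.25 in p27KO, given without a p because the filter let the region in through DIFF alone. Pileups were 16 to 30 fragments at DIFF.

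In an intron of Ptch1 at chr13:63548758-63549635, 24.2 kb after the start, WT PRO libraries again had no peak and WT DIFF libraries had fold enrichments of 5.99, 4.23 and 5.32. In p27KO the values were absent and 2.50 at PRO and 4.74 and 6.30 at DIFF. DIFF exceeded PRO in every library, with changes of 1.67 ± 0.21 in WT and 1.58 ± 0.26 in p27KO. No p is given here either, because with a peak in 1 PRO library the region entered the test through DIFF. Its window held a TEAD match. A further intron region at 30.4 kb, outside the naming rule, passed in WT (0.75 ± 0.24, adjusted p = 0.0493) and lost the call without any 1 of 9 libraries (highest adjusted p = 0.157).

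The Ptch1 region with the GLI letters lies 626 bp from an internal start of the gene, at chr13:63565745-63566847. Its fold enrichments were 3.96, 4.11 and 4.31 in WT PRO, 4.84, 5.50 and 6.54 in WT DIFF, 4.35 and 4.84 in p27KO PRO and 5.93 and 5.55 in p27KO DIFF. The WT groups did not overlap, nor did the p27KO groups. The change was 0.83 ± 0.19 in WT (adjusted p = 0.0104) and 0.59 ± 0.23 in p27KO (adjusted p = 0.128). Pileups were high in every library, 87 to 111 at PRO and 83 to 195 at DIFF, over a local background of 20.6 to 26.3 at PRO and 15.7 to 29.0 at DIFF. Ranked by pileup the WT change was 0.41 (adjusted p = 0.041).

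Sufu, whose protein binds GLI factors and keeps them inactive, had 4 called regions of 19 tested, all outside its gene body. The region at chr19:46375597-46375970, 21.2 kb upstream, was open in the 5 DIFF libraries only, with fold enrichments of 4.30, 3.24 and 4.02 in WT and 4.84 and 3.98 in p27KO. Its changes were 1.21 ± 0.21 in WT and 1.42 ± 0.26 in p27KO, again with no p because it entered the test through DIFF alone. The nearest start was that of Mfsd13a, 18849 bp away. With pileups of 13 to 18 fragments it was close to the lower limit of the peak lists.

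Another region, chr19:46356711-46357137, lay at the start of Mfsd13a, 40.0 kb upstream of Sufu. Its fold enrichments were 6.37, 5.44 and 5.13 in WT PRO, 4.81, 3.93 and 7.2 in WT DIFF, 3.83 and absent in p27KO PRO and 5.61 and 8.52 in p27KO DIFF. The WT groups overlapped and the p27KO groups did not. The change was 0.17 ± 0.23 in WT (adjusted p = 0.653) and 1.63 ± 0.28 in p27KO (adjusted p = 0.00341). The difference between these changes, 1.46 ± 0.36, had an unadjusted p of 0.00173 in the limma interaction and an adjusted p of 1.0. Downstream of the gene, near Trim8, 2 regions were lower at DIFF in WT. At chr19:46518067-46518828 the WT change was -1.02 ± 0.27 (adjusted p = 0.0202) and the p27KO change -0.65 ± 0.33 (adjusted p = 0.237), and at chr19:46490603-46491043, outside the naming rule, they were -0.98 ± 0.25 (adjusted p = 0.0172) and -0.24 ± 0.30 (adjusted p = 0.683). The WT calls were lost without WT PRO replicate 2 or WT DIFF replicate 1 or 2 for both, and without WT PRO replicate 3 for the first or replicate 1 for the second (highest adjusted p = 0.0733 and 0.066).

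Boc and Cdon encode cell surface proteins that bind Hedgehog ligands together with PTCH1. Boc had 2 called regions of 8 tested. At chr16:44516377-44517534, in an intron 42.2 kb after the start, fold enrichments were 8.03, 8.16 and 4.88 in WT PRO, 11.2, 12 and 15.1 in WT DIFF, 8.38 and 6.12 in p27KO PRO and 13.6 and 15.2 in p27KO DIFF. All 10 libraries had a peak and no PRO library reached a DIFF library. The percentile rose from 59.5 ± 14.8 (SD, n = 3) to 93.1 ± 2.81 (n = 3) in WT. The change was 1.38 ± 0.22 in WT (adjusted p = 0.0013) and 1.32 ± 0.27 in p27KO (adjusted p = 0.00855), and the p27KO call was lost without p27KO PRO replicate 2 (adjusted p = 0.0764) or p27KO DIFF replicate 1 (adjusted p = 0.0537). The other region, chr16:44484060-44484401, beyond the end of the gene, was open in all 3 WT DIFF and no WT PRO library and in 1 of 2 p27KO libraries in each condition. It changed by 1.17 ± 0.30 in WT and 0.36 ± 0.37 in p27KO, and only the WT change was called. The region reached the filter of 5 libraries through WT DIFF, so no p is given. The WT call was lost without WT PRO replicate 1 or 2 or WT DIFF replicate 1 or 2.

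Cdon had 3 called regions of 11 tested, each with a peak in all 10 libraries. At chr9:35507787-35508853, just beyond the end of the gene, fold enrichments were 6.13, 8.30 and 6.35 in WT PRO, 9.29, 9.38 and 13.1 in WT DIFF, 6.23 and 6.86 in p27KO PRO and 13.3 and 13.7 in p27KO DIFF. Every DIFF library lay above every PRO library. The change was 0.95 ± 0.19 in WT (adjusted p = 0.0047) and 1.3 ± 0.23 in p27KO (adjusted p = 0.0041). Its window held the E-box printed in capitals above.

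Inside Cdon, an intron region went down. At chr9:35481892-35482747 fold enrichments were 9.42, 8.62 and 7.81 in WT PRO, 3.54, 2.78 and 5.29 in WT DIFF, 9.34 and 8.82 in p27KO PRO and 3.82 and 6.53 in p27KO DIFF. PRO and DIFF did not overlap. The change was -0.92 ± 0.19 in WT (adjusted p = 0.00688) and -0.69 ± 0.24 in p27KO (adjusted p = 0.0822), and joining summits within 150 bp ended the WT call (-0.89, adjusted p = 0.0641). At chr9:35534965-35535465, 114.2 kb after the start, the change was -0.80 ± 0.22 in WT (adjusted p = 0.0254) and -0.69 ± 0.27 in p27KO (adjusted p = 0.123). WT DIFF replicate 3 had a fold enrichment of 14.7 there, equal to WT PRO replicate 3, against 8.25 and 8.64 in the other two. Ranked by pileup the WT change was -0.27 (adjusted p = 0.111), and the call was lost without WT PRO replicate 1 or 2 or WT DIFF replicate 1 or 2 (highest adjusted p = 0.095).

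The direction of change was shared by the genotypes. All 22 members called in WT changed in the same direction in p27KO, and 16 of them had an unadjusted p under 0.05 there, 12 without the 4 regions open in the DIFF libraries alone; over all regions called in WT the share with the same direction was 97.2%. Of the 13 called in p27KO, 13 had the same direction in WT, and 10 regions were called in both, or 6 without the 4 regions open in the DIFF libraries alone. The share of WT calls with an unadjusted p under 0.05 in p27KO, or called in both, was not computed over all regions. These counts therefore cannot be set against the whole series. The 10 were 3 in Gli2 among those higher and 1 lower, the Gli3 intron region, 2 in Ptch1 and 1 each at Sufu, Boc and Cdon. WT and p27KO libraries are separate samples, but the contrasts share 1 estimate of the spread. The filter of 5 libraries also counted peaks over both genotypes, which favours regions that change alike. The 6 still include the Gli3 region at 201.8 kb, the Gli2 region at 148.1 kb and the Ptch1 region at 24.2 kb, which entered the test through DIFF. The shared direction is therefore not independent evidence from each genotype.

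**Figure D4:**
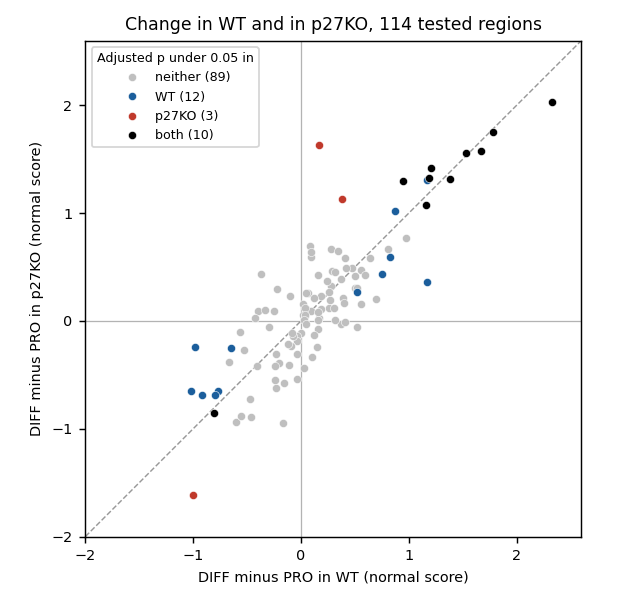
Change from PRO to DIFF in WT (horizontal axis) against that in p27KO (vertical axis), both in normal scores, for the 114 tested regions, coloured by the genotype in which the adjusted p was under 0.05. The dashed line marks equal change. The 10 regions called in both lie close to it, and the Mfsd13a start region stands apart at 0.17 in WT and 1.63 in p27KO.

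No member differed between WT and p27KO past the threshold. The interaction called 0 of 114 members (limma, unadjusted p under 0.05 in 3; 0.0% of all regions called), p27KO against WT at PRO called 0 (unadjusted in 4; 0.034% of all regions) and at DIFF 0 (unadjusted in 6; 0.0156% of all regions). The lowest adjusted p for any member was 1.0, 0.336 and 0.915 in turn. The 3 members with an unadjusted interaction were the Mfsd13a start region above, the Gli2 intron region at 142.6 kb (0.75 ± 0.28, unadjusted p = 0.0207) and a region 20.8 kb upstream of Boc (0.80 ± 0.34, unadjusted p = 0.0376). At the Mfsd13a start the PRO difference between genotypes was -1.18 ± 0.25 (unadjusted p = 0.000658, adjusted p = 0.336). With 2 p27KO libraries per condition, a missed threshold does not show that the genotypes were alike.

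Presence and absence of peaks gave a second view that needs no ranking. Counting regions with a peak in every DIFF and no PRO library as opened and the reverse as closed, WT opened 8 of 143 members (5.59%, against 1.86% of all regions) and closed 1 (0.699%, against 4.32%). In p27KO, 4 opened (2.8%, against 3.32%) and 7 closed (4.9%, against 10.9%). No test was made of these shares. The 8 regions opened in WT were 3 in Gli2, 2 in Ptch1 and 1 each at Gli3, Boc and Sufu, and 4 of them, 2 in Gli2 and 1 each at Ptch1 and Sufu, opened in p27KO as well. No region closed in both genotypes; the one closed in WT, chr13:15421356-15421852 upstream of Gli3, had no peak in any p27KO library.

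These counts lean on single lists. The number closed in WT was 10 without WT DIFF replicate 3, the longest WT list with 88738 peaks, and 1 with it. WT DIFF replicate 3 also held 148 member peaks, against 106 in each of the other WT DIFF libraries. Per 10000 peaks of their list, member peaks numbered 15.3 ± 0.173 at PRO and 17.4 ± 0.874 at DIFF in WT (SD, n = 3 each), and 14.4 ± 0.495 at PRO and 16.6 ± 0.354 at DIFF in p27KO (SD, n = 2 each). All 5 DIFF libraries lay above all 5 PRO libraries in this share, while the lists of 4 DIFF libraries were shorter than every PRO list; the part of list length in this was not tested.

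The other genes of the pathway were read at their promoters, from a list of 31. Of these promoters 27 had a peak in all 10 libraries and 29 were tested. One passed in WT, that of Disp1, whose protein releases Hedgehog ligands from producing cells; it was lower at DIFF (-0.89, adjusted p = 0.0448) with a p27KO change of -0.71 (adjusted p = 0.221). None passed in p27KO, the interaction or between genotypes. In WT 19.2% of all tested regions were called, and 12.9% of those with a peak in all 10 libraries. No share over promoters alone was computed, so 1 of 29 does not show that these promoters were unusually stable. Among the ligand genes, the promoter region of Ihh had a peak in 1 library, that of Dhh in 3 and that of Shh, 2352 bp from its start, in 9. The reception genes Gas1, Lrp2 and Gpr161, the 7 cilium genes and the 8 genes of GLI processing had a promoter peak in all 10 libraries, as did 6 of 7 target genes, with Nkx2-2 in 9.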

How the data were processed

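Nuclei of adult SEZ NSC cultures were profiled by ATAC-seq in 10 libraries. According to the study's methods the authors clipped and trimmed reads (Cutadapt, Trimmomatic), mapped them to GRCm38 (mm10) with Bowtie2, marked duplicates and called narrow peaks per library with MACS2 at an FDR of 0.05 without a model; whether reads were shifted for the transposase offset is not given in the sources used here. The deposited narrow-peak lists give, for each peak, the fold enrichment (a ratio), −log10 p-value and −log10 q-value at the summit, and the summit offset. The authors' lists hold no read counts, so the read depth is unknown and DiffBind, the test of the study, was not run here. Sites listed hold called peaks only, so an absent peak means below the caller's threshold.

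Peaks of the 10 lists that overlapped by at least 1 bp were merged into regions, and GENCODE M21 gave the genes. For regions detected in 5 or more libraries, fold enrichments were ranked within each library, absent peaks tied lowest, turned into normal scores and tested with limma 3.58.1 (R 4.3.3), 1 mean per group over all 10 libraries, two-sided, with Benjamini-Hochberg adjustment over all regions. The step was tested on simulated data. Fold enrichment and −log10 p together gave whole-number pileups for 99.992% of peaks (−log10 p met within 0.01). Motifs were searched within 100 bases of the median summit.

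The members, gene lists, markers, motifs and tests were chosen with earlier results of these data known. One gene of the pathway list is not reported here. Named were, for each member, its promoter and up to 3 called regions with the largest mean change; other called regions that are named were chosen after their values were seen. Alternatives changed the ranked value, the filter, the peak set, the window and the libraries; ranking by pileup and a crossed block were added after seeing the data. Replicate numbers were taken not to pair libraries, because the correlations of their deviations were small. In WT, same-numbered PRO and DIFF libraries had correlations of 0.033 to 0.065 and differently numbered ones -0.051 to -0.005. In p27KO the same-numbered value was -0.141 and the crossed one 0.141, which 2 libraries per group fix as its reverse. These values do not settle whether libraries were paired.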

Additional observations from a re-analysis of the deposited data

How the results depend on the processing

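Of the 35 calls, 8 were of the 4 regions open in the DIFF libraries alone, whose outcome the filter fixed. Of the other 27, 12 stayed past the threshold in every alternative in which the region was tested. These 12 include the WT and p27KO calls of the Gli3 region at 201.8 kb, the Gli2 region at 148.1 kb and the Ptch1 region at 24.2 kb. Those regions had a peak in every DIFF and 1 PRO library and entered the test through DIFF, so their stability is no independent support. Over all named values, 1294 of 1418 recomputed changes kept direction and side of the threshold, 105 lost it and 16 gained it. Only 26 of the 72 named values were called at the main setting, so the 1294 include values that stayed uncalled. Of the 35 calls, 17 lost the threshold in at least 1 alternative. Values turned sign in 3: the Gli3 promoter in WT ranked by pileup (-0.42), the Gli2 region 19.6 kb after the start in WT ranked by pileup (-0.06) and the Gli2 region 142.6 kb after the start in p27KO with summits within 150 bp joined (-0.70); the cause was not tested.

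The number of members called in WT was 22 of 114. It was 6 of 73 with regions open in all 10 libraries (12.9% of all regions), 8 of 73 on quantile-normalized log2 fold enrichment (13.2%) and 13 of 58 within gene bodies (19.2%), and 12 to 20 when 1 library was left out. In p27KO (13 of 114) these were 5 (6.33%), 6 (6.6%), 8 (12.3%) and 10 to 14, and 20 of 114 ranked by pileup (14.1%). The counts for the interaction and both genotype contrasts were 0 in every alternative.

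The WT closed count (1) was 0 at a −log10 q-value of at least 3, within gene bodies and within 10 kb of them, 2 with summits joined, and 1 to 10 with a library left out. The WT opened count (8) was 5 within gene bodies and 8 to 10 with a library left out. The p27KO closed count (7) was 2 with equal numbers of top peaks, 2 within gene bodies, 4 within 10 kb and 9 to 19 with a library left out. The p27KO opened count (4) was 7, 2, 2 and 7 to 12 in the same order.

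With the replicate number as a block, 20 members were called in WT (18.5% of all regions) and 14 in p27KO (11.7%); no pairing is implied. The block ended the WT calls of the Gli1 (adjusted p = 0.0706), Gli2 19.6 kb (0.0746) and Ptch1 30.4 kb (0.0732) regions and the p27KO call of Gli2 76.9 kb (0.0602), and gained Gli3 36.1 kb upstream in WT (0.0437) and Gli2 117.4 kb (0.024) and 27.5 kb (0.0425) in p27KO. Crossing the p27KO numbers gave 20 (19% of all regions) and 14 (12.1%). Peaks under the caller's threshold are not in the lists, so low accessibility could not be told from none, and intervals on counts could not be given.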
